A study of Homo sapiens with 10 samples.

Results

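The 10 genes described here are NFE2L2, which encodes the transcription factor NRF2, its regulators KEAP1 and BACH1, and 7 target genes of the pathway: HMOX1, OSGIN1, NQO1, GCLC, GCLM, TXNRD1 and SRXN1. They were chosen by symbol from the deposited count table, where each has 1 of the 22626 rows, and all 10 passed the filter on low counts. RNA was sequenced from ARPE-19, an established human line of retinal pigment epithelium (RPE) cells, kept for 48 h in control medium (5.5 mM glucose with 32 mM mannitol, 5 libraries) or in high glucose medium (37.5 mM glucose, 5 libraries). Both groups grew in DMEM with 10% fetal bovine serum. Mannitol is a sugar alcohol added to match the osmolarity of the high glucose medium, so the groups differ in glucose and in mannitol together. The labels do not say whether the 5 libraries of a group came from separate cultures, and p-values then measure the spread between these libraries, which may be technical. High glucose libraries are named HG 1 to HG 5 after their deposited columns, which could be tied to the group and not to a single labelled sample.

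NRF2 is a transcription factor of the response to oxidants and electrophiles. In resting cells KEAP1 holds it in the cytoplasm as the adaptor of a CUL3 ubiquitin ligase and sends it to the proteasome. When reactive cysteines of KEAP1 are modified, newly made NRF2 reaches the nucleus, pairs with a small MAF protein and binds antioxidant response elements, and BACH1 is a haem-sensitive repressor that competes for many of the same elements. NRF2 is regulated largely at the level of the protein, so the NFE2L2 transcript is a separate quantity from NRF2 activity. In the RPE, which faces light, high oxygen tension and oxidised lipids, this pathway is a main line of antioxidant defence. RNA counts carry no information on protein amount or nuclear entry, and in bulk RNA fewer cells expressing a gene cannot be told apart from less RNA per cell.

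HMOX1 and OSGIN1 rose in high glucose, by 1.58-fold and 1.46-fold, and in each of these genes every high glucose library lay above every control library. SRXN1, with a fold of 1.11, missed the threshold narrowly. NFE2L2, KEAP1, BACH1, NQO1, GCLC, GCLM and TXNRD1 did not pass the test, with folds between 0.964 and 1.12. The transcripts of the regulators, of the glutathione-synthesis enzymes and of NQO1 were therefore not shown to change in the medium in which HMOX1 was higher. With edgeR and Benjamini-Hochberg adjustment over 14936 rows, a gene was called at an adjusted p under 0.05, and 2 of the 10 genes were called, both higher, where 15.4% of all rows tested were called (7.62% higher and 7.8% lower). Only HMOX1 among the 10 was also above a fold of 1.5, a rule that 3.69% of all rows met, and 1.67% in the higher direction. The median log2 fold change of the 10 genes was 0.09, beside 0.00 over all rows. Groups without overlap in the higher direction occurred in 2 of the 10 genes and in 6.74% of all rows.

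**Figure D1:**
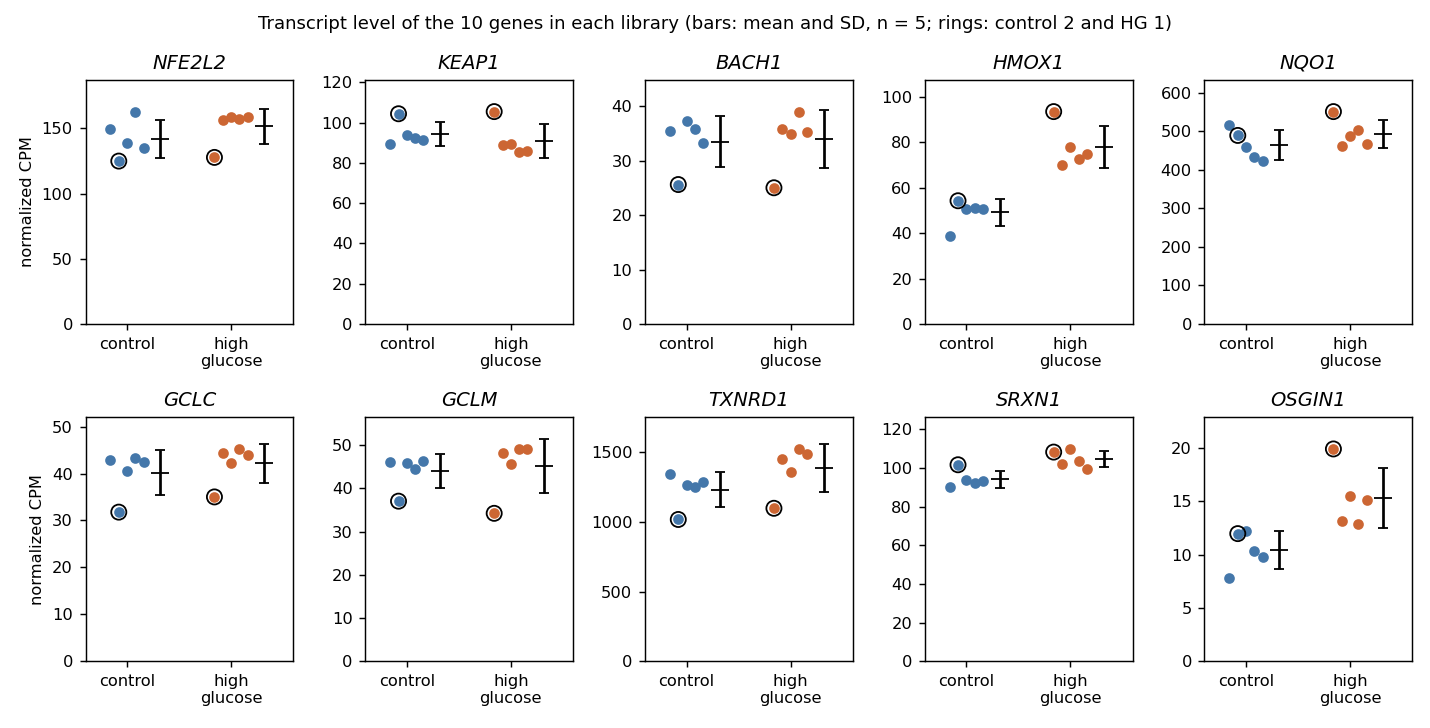
Normalized CPM (y axis, starting at 0) of each of the 10 genes in the 5 control and 5 high glucose libraries, 1 point per library, with the mean and SD of each group as bars and rings around control 2 and HG 1. HMOX1 and OSGIN1 are the genes whose groups do not overlap; in NFE2L2, BACH1, GCLC, GCLM and TXNRD1 the ringed libraries are the lowest of their groups.

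The DNA before the start sites is shown because antioxidant response elements are how NRF2 acts on these genes, and because the members that rose can then be set beside those that did not. Windows of 300 bases, from 250 before to 50 after a RefSeq start site (GRCh38.p14), were searched on both strands for TGACNNNGC, the core of the element. BACH1, GCLC, GCLM, KEAP1, NFE2L2, NQO1, OSGIN1, SRXN1 and TXNRD1 had entries in the set of windows used, 14 windows in all. No entry of that set matched HMOX1, so its promoter was not searched and is missing from this comparison. The core was found in 4 of the 14 windows, belonging to 3 of 9 genes (GCLM, KEAP1 and TXNRD1), and in 13.3% of all 35116 windows of the same length. Each line below is written 5′ to 3′ on the strand of the gene, with the matched letters in capitals.
GCLM, chr1:93909441-93909479, minus strand: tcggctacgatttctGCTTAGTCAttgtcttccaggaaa
KEAP1, chr19:10502779-10502817, minus strand: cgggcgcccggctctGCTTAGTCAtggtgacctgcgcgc
KEAP1, chr19:10502802-10502840, minus strand: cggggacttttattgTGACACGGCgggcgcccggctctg
TXNRD1, chr12:104215665-104215703, plus strand: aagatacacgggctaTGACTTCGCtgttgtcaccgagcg
TXNRD1, chr12:104215756-104215794, plus strand: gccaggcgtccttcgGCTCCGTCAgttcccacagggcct
TXNRD1, chr12:104286915-104286953, plus strand: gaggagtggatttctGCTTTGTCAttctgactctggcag
The windows of GCLM and KEAP1 hold the same 9 letters, read on the opposite strand of the gene, and neither gene was called. The looser pattern TGANNNNGC was in 8 of the 14 windows, belonging to 7 of 9 genes, and in 41.8% of all windows. The 7-base AP-1 site TGAGTCA, which is also the centre of the longer site bound by small MAF proteins and BACH1, was in 2 of the 14 windows, of BACH1 and OSGIN1, and in 4.95% of all windows. It is shown for these genes because OSGIN1 is the called gene with an entry, and the OSGIN1 copy overlaps a match of the looser pattern.
BACH1, chr21:29298859-29298895, plus strand: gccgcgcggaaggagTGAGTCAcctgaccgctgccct
OSGIN1, chr16:83953128-83953164, plus strand: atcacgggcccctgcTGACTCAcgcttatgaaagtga
The composite site TGATGCAA, bound by ATF4 with a C/EBP partner, was in 0 of the 14 windows and in 0.866% of all windows. These are letters within short windows, and enhancers farther from the start sites were not searched.

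The depth allowed each of the 10 genes to be measured in every library. Total counts were 33039260 to 45864176 per control library and 32448991 to 44400714 per high glucose library, and the 10 genes had between 258 counts (OSGIN1 in control 1) and 60778 counts (TXNRD1 in HG 3). Levels are given as normalized CPM, the count of a gene relative to the library total after TMM scaling. TXNIP, a gene that rises with glucose, went from 0.978 to 8.72 normalized CPM with no overlap between the groups (log2 fold change 3.15), as a check of the labels. Of 12 RPE markers 9 were tested, none was called higher and PMEL, KRT8 and KRT18 were called lower, with summed levels of 2831 to 3589 normalized CPM in control and 1796 to 2469 in high glucose, most of it the keratins KRT8 and KRT18. BEST1, which is in that sum, was at 264.0 CPM in control 1 and 551.5 in control 4 and between 0.577 and 7.79 in the other 8 libraries, and without it, KRT8 and KRT18 the other 9 markers summed to 165.2 to 181.5 and 147.0 to 157.0 normalized CPM. TTR was at 0 counts in all libraries and RPE65 at 0 to 6. Over the 3 leukocyte markers the sums were 60.5 to 88.3 and 105.3 to 148.8 normalized CPM, nearly all of it CD68, with PTPRC at 0 to 4 counts. Over the 5 fibroblast markers they were 40.3 to 54.2 and 16.7 to 20.8 with LUM at 0, and over the 3 endothelial markers at most 0.583 with CDH5 at 0. The part of these marker differences in the results on the 10 genes was not tested.

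Libraries control 2 and HG 1 stood apart from the others, each within its own group. Log2 levels rose with the GC content of the transcript by 0.166 (control 2) and 0.184 (HG 1) per 10 percentage points, while the slopes of the other 8 libraries were between -0.09 and -0.00. The 10 genes followed this order. GCLM, BACH1, GCLC, TXNRD1, NFE2L2 and NQO1 have longest transcripts with a GC content from 37.3% to 46.0%, and 5 of these 6 were lower in control 2, and also in HG 1, than the mean of the other 4 libraries of the group. The exception in both libraries was NQO1, which was higher. SRXN1, HMOX1, KEAP1 and OSGIN1 have a GC content from 53.6% to 63.4%, and all 4 were higher in both libraries. The median absolute deviation of the 10 genes was 0.33 log2 units in HG 1 and 0.25 in control 2, and after correction for GC content and length it was 0.14 and 0.12. Values of the 10 genes without these libraries are given beside the results below.

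**Figure D2:**
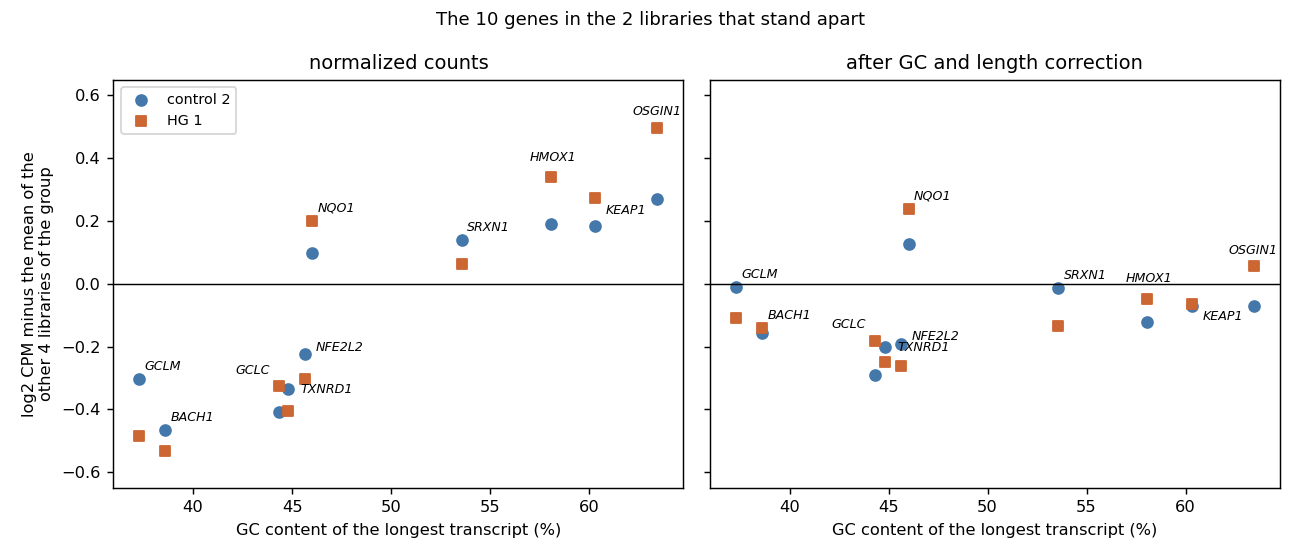
Deviation of each of the 10 genes in control 2 (circles) and HG 1 (squares) from the mean log2 CPM of the other 4 libraries of the group (y axis), against the GC content in percent of the gene's longest coding transcript (x axis), before (left) and after (right) correction for GC content and length. Before correction the deviations run from -0.53 for BACH1 to 0.50 for OSGIN1 in HG 1, and after it the largest absolute value is 0.26 in HG 1 and 0.29 in control 2.

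HMOX1 encodes haem oxygenase 1, the inducible enzyme that splits haem into biliverdin, iron and carbon monoxide. The gene (ENSG00000100292) lies on chr22:35380361-35394214 on the plus strand of GRCh38. In the control libraries 1 to 5 its level was 38.8, 54.2, 50.5, 51.2 and 50.8 normalized CPM. In HG 1 to HG 5 it was 93.4, 70.1, 77.9, 72.4 and 74.9 normalized CPM. Control 1 was low within its group and HG 1 high within its own, and the lowest high glucose library was above the highest control library. The means were 49.1 ± 5.97 (SD, n = 5) in control and 77.8 ± 9.22 (SD, n = 5) in high glucose, and the log2 fold change was 0.66 (SE 0.102, 95% interval 0.44 to 0.89, edgeR adjusted p = 0.00158). The exact two-sided permutation test of log2 CPM over all arrangements of the 10 libraries gave p = 0.00794, the smallest that 5 against 5 libraries allow. HMOX1 passed the test under all 23 alternatives run, with log2 fold changes between 0.59 and 0.70. Without control 2 and HG 1 the value was 0.63 (edgeR adjusted p = 0.00109).

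OSGIN1 encodes oxidative stress-induced growth inhibitor 1, and it was the least abundant of the 10 transcripts in control. Its level in control 1 to 5 was 7.82, 12.0, 12.2, 10.3 and 9.75 normalized CPM. In HG 1 to HG 5 it was 19.9, 13.1, 15.5, 12.8 and 15.1 normalized CPM. As for HMOX1, control 1 was the lowest library and HG 1 the highest, and the groups did not overlap, although HG 4 and control 3 were close. The log2 fold change was 0.55 (SE 0.150, 95% interval 0.22 to 0.88, edgeR adjusted p = 0.0306). The call depended on single libraries: it was lost without control 1, control 4, control 5, HG 3 or HG 5, with log2 fold changes of 0.46 to 0.56 and edgeR adjusted p between 0.0589 and 0.0733, and kept in the other 5 fits that left out a library. Without control 2 and HG 1 the log2 fold change was 0.49 (edgeR adjusted p = 0.0257).

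**Figure D3:**
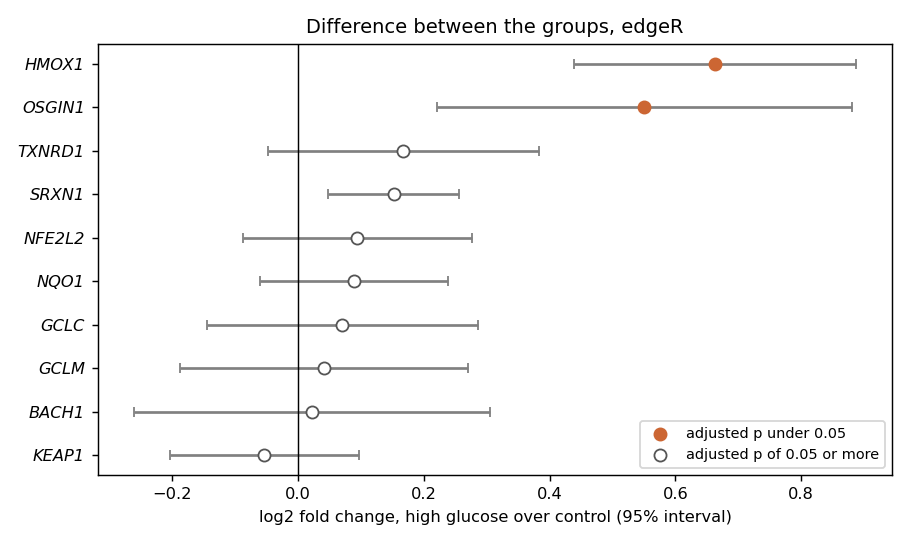
Log2 fold change of each of the 10 genes, high glucose over control, from edgeR (points), with 95% intervals (bars); filled points have an adjusted p under 0.05. HMOX1 (0.66) and OSGIN1 (0.55) are filled, the interval of SRXN1 (0.05 to 0.26) also leaves out 0, and the other 7 intervals include it.

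The thioredoxin branch was represented by TXNRD1 and SRXN1. SRXN1 encodes sulfiredoxin, which restores hyperoxidised peroxiredoxins. Its level was 89.9, 101.6, 93.5, 92.2 and 93.3 normalized CPM in control 1 to 5. In HG 1 to HG 5 it was 108.2, 102.1, 109.8, 103.5 and 99.3 normalized CPM. The groups overlapped only through control 2, which was above HG 5. The log2 fold change was 0.15 (SE 0.0470, 95% interval 0.05 to 0.26, edgeR adjusted p = 0.0516), and 10 of 23 alternatives put it past the threshold, DESeq2 and the correction for GC content and length among them. Without control 2 and HG 1 the groups did not overlap and the log2 fold change was 0.17 (edgeR adjusted p = 0.00859). AL121758.1, a gene model that shares 84.5% of the 100-base windows of the longest SRXN1 transcript, has a row of its own with 0 to 8 counts, so nearly all counted reads of this sequence stand in the SRXN1 row.

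TXNRD1 encodes the cytosolic thioredoxin reductase, which keeps thioredoxin reduced at the expense of NADPH. Its level in control 1 to 5 was 1341, 1017, 1265, 1249 and 1284 normalized CPM. In HG 1 to HG 5 it was 1097, 1450, 1355, 1522 and 1489 normalized CPM. Control 2 and HG 1 were the lowest of their groups, and the other 4 high glucose libraries were all above the other 4 control libraries. Over all libraries the log2 fold change was 0.17 (SE 0.0978, 95% interval -0.05 to 0.38, edgeR adjusted p = 0.301). Without control 2 and HG 1 it was 0.18 (SE 0.0405, edgeR adjusted p = 0.0110), with levels of 1249 to 1341 in control and 1355 to 1522 in high glucose. Without HG 1 alone, and with 1 surrogate variable in the fit, the gene was also called.

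Leaving out control 2 and HG 1 thus brought 4 of the 10 genes past the threshold, all higher (HMOX1, OSGIN1, SRXN1 and TXNRD1), in a fit of 4 against 4 libraries that called 27.1% of all rows and 13.3% in the higher direction. The share called over all rows rose along with the count of members. KEAP1 then also lay narrowly apart, at 85.2 to 89.2 in high glucose and 89.4 to 94.0 in control, and was not called (log2 fold change -0.07, edgeR adjusted p = 0.122). The share of all rows without overlap in 4 against 4 libraries was not counted. Lack of overlap there in HMOX1, OSGIN1, SRXN1, TXNRD1 and KEAP1 is therefore only a description.

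The regulators gave no call in any of the 23 alternatives. NFE2L2 was at 149.4, 124.9, 138.9, 162.9 and 134.6 normalized CPM in control 1 to 5. In HG 1 to HG 5 it was at 127.8, 156.6, 158.8, 157.1 and 158.5. HG 2 to HG 5 lay close together, between 156.6 and 158.8, and inside the control range, and HG 1 was far below them. The log2 fold change of NFE2L2 was 0.09 (SE 0.0822, edgeR adjusted p = 0.511) with a 95% interval of -0.09 to 0.28, which corresponds to folds of 0.942 to 1.21. Leaving out control 2 and HG 1 gave 0.11 (edgeR adjusted p = 0.182).

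KEAP1, the sensor that holds NRF2, was at 89.4, 104.4, 94.0, 92.6 and 91.2 normalized CPM in control 1 to 5. In HG 1 to HG 5 it was at 105.5, 88.8, 89.2, 85.2 and 85.8. Here control 2 and HG 1 were the highest of their groups, and the log2 fold change was -0.05 (SE 0.0679, 95% interval -0.20 to 0.10, edgeR adjusted p = 0.676). BACH1, the repressor, ranged from 25.6 to 37.3 normalized CPM in control and from 25.0 to 39.0 in high glucose, with control 2 and HG 1 lowest. Its log2 fold change was 0.02 (SE 0.128, 95% interval -0.26 to 0.31, edgeR adjusted p = 0.937), and its sign turned when control 2 or HG 4 was left out. With control 2 and HG 1 left out together it was 0.03 (edgeR adjusted p = 0.683).

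NQO1 and the 2 subunits of glutamate-cysteine ligase are the targets most often read as NRF2 output. NQO1 encodes a quinone reductase that uses NADH or NADPH. It was at 516.0, 489.0, 458.5, 433.8 and 423.7 normalized CPM in control 1 to 5, and at 550.8, 460.5, 487.9, 503.7 and 465.6 in HG 1 to HG 5. The groups overlapped over most of their range, and the log2 fold change was 0.09 (SE 0.0677, 95% interval -0.06 to 0.24, edgeR adjusted p = 0.446). It was 0.07 without control 2 and HG 1 (edgeR adjusted p = 0.468).

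GCLC encodes the catalytic subunit of the ligase that starts glutathione synthesis, and GCLM the modifier subunit. GCLC ranged from 31.8 to 43.3 normalized CPM in control and from 35.0 to 45.2 in high glucose, and GCLM from 37.1 to 46.4 and from 34.2 to 49.1. In both genes control 2 and HG 1 were the lowest libraries of their groups and the other 8 were close together, between 40.5 and 45.2 for GCLC and between 44.5 and 49.1 for GCLM. The log2 fold change was 0.07 for GCLC (SE 0.0974, edgeR adjusted p = 0.705) and 0.04 for GCLM (SE 0.104, edgeR adjusted p = 0.850). Their 95% intervals reached folds of 1.22 and 1.21, below the 1.36 at which the interval of HMOX1 began. Neither gene was called in any of the 23 alternatives, and without control 2 and HG 1 the values were 0.06 and 0.07.

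Levels can be compared between genes in FPKM, the deposited values per transcript length and library size. In control the order was TXNRD1 (292 ± 33.5 FPKM, SD, n = 5), NQO1 (178 ± 12.7), NFE2L2 (49.3 ± 3.71), SRXN1 (34.3 ± 1.20), KEAP1 (34.0 ± 1.57), HMOX1 (29.1 ± 3.42), GCLC (9.86 ± 1.30), GCLM (8.42 ± 0.851), BACH1 (6.63 ± 0.665) and OSGIN1 (5.01 ± 0.846). Neighbours that overlapped between libraries were SRXN1 with KEAP1, GCLC with GCLM, GCLM with BACH1, and BACH1 with OSGIN1. HMOX1 lay below KEAP1 without overlap, at 23.0 to 31.4 FPKM against 32.4 to 36.5. In high glucose HMOX1 stood at 42.5 to 53.8 FPKM, above SRXN1 (36.7 to 40.7) and KEAP1 (31.1 to 36.4), and overlapped NFE2L2 (42.6 to 59.3). OSGIN1 moved from a mean of 5.01 to 7.47 FPKM, next to BACH1 at 7.08. TXNRD1 and NQO1 remained the most abundant of the 10 in high glucose, at 330 ± 47.3 and 189 ± 9.57 FPKM (SD, n = 5).

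Whether HMOX1 moved with the other 9 genes was tested on the ratio within each library, in which the library scaling cancels. Relative to HMOX1, 8 of the 9 genes were lower in high glucose and 1, OSGIN1, was not called. The log2 ratio to HMOX1 fell by 0.72 for KEAP1 (SE 0.0872, limma adjusted p = 6.15e-05), by 0.58 for NQO1 (SE 0.123, limma adjusted p = 0.00143) and by 0.51 for SRXN1 (SE 0.0976, limma adjusted p = 0.000694). It fell by 0.57 for NFE2L2, 0.65 for BACH1, 0.63 for GCLM, 0.59 for GCLC and 0.50 for TXNRD1, with limma adjusted p from 0.00745 to 0.0251. For OSGIN1 the difference was -0.12 (SE 0.0998, limma adjusted p = 0.289), which does not show that the 2 genes act alike. A ratio to a gene that rose differs for most genes: 81.9% of 14935 rows were called by the same test, nearly all of them lower (81.5% of all rows), so the 8 of 9 is near the background. Without control 2 and HG 1 the same 8 genes were called, with falls of 0.46 (TXNRD1) to 0.71 (KEAP1), and OSGIN1 was at -0.13 (limma adjusted p = 0.292).

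The ratios of NFE2L2, KEAP1, NQO1 and SRXN1 to HMOX1 did not overlap between the groups. HMOX1 by itself already separated the groups, and the share of all rows whose ratio to it did not overlap was not counted. The separation can therefore not be read as particular to these genes. For KEAP1 the log2 ratio of HMOX1 over the gene was between -1.21 and -0.84 in control and between -0.34 and -0.17 in high glucose, so that HMOX1 came close to KEAP1 in CPM. For BACH1, GCLC, GCLM and TXNRD1 the ratios overlapped through control 2 alone, the control library with the highest ratio, and HG 1 was the high glucose library with the highest ratio to each of these 4. For OSGIN1 the log2 ratio was between 2.04 and 2.37 in control and between 2.23 and 2.49 in high glucose.

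**Figure D4:**
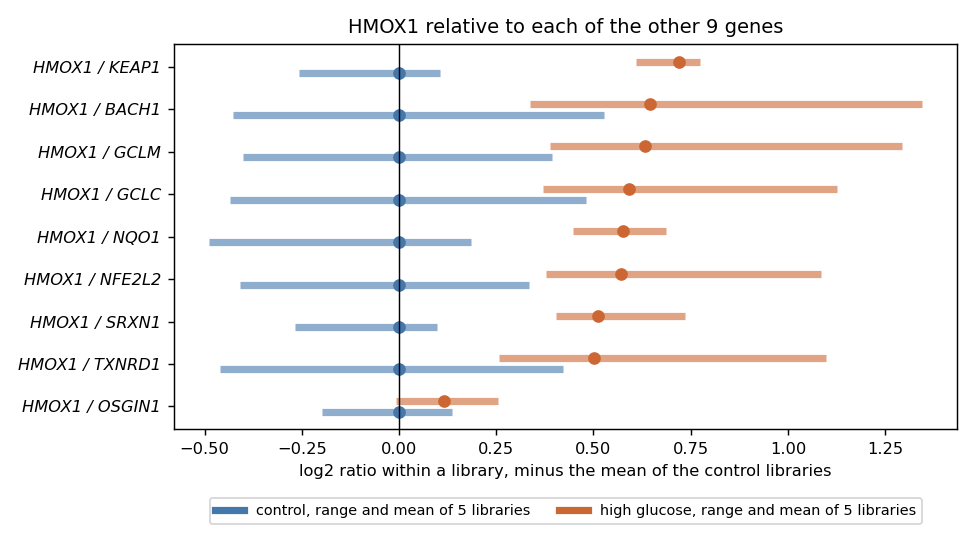
Log2 ratio of HMOX1 to each of the other 9 genes within a library, minus the mean of the control libraries (x axis), with the range (bar) and mean (point) of the 5 control and 5 high glucose libraries. The mean shift is between 0.50 (TXNRD1) and 0.72 (KEAP1) for 8 genes and 0.12 for OSGIN1. Bars do not overlap for KEAP1, NQO1, NFE2L2 and SRXN1, and the share of all rows with such a separation was not counted.

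Within the groups, OSGIN1 also varied with HMOX1 from library to library. After centring log2 CPM within each group, Pearson's r with HMOX1 over the 10 libraries was 0.92 for OSGIN1, 98th of 9647 genes with at least 10 CPM on average. It was 0.77 for KEAP1, 0.66 for SRXN1 and 0.02 for NQO1, and negative for NFE2L2 (-0.63), BACH1 (-0.68), GCLC (-0.69), GCLM (-0.73) and TXNRD1 (-0.79). The sign follows the GC content of the transcripts, with OSGIN1, KEAP1 and SRXN1, which like HMOX1 are above 50%, positive. The 5 with the lowest GC content were negative and NQO1, at 46.0%, was near 0. These points share control 2 and HG 1, and the values are a description. Over the 8 libraries without them, r was 0.84 for OSGIN1 (365th of 9647), 0.54 for KEAP1, 0.51 for SRXN1, -0.11 for NFE2L2, -0.12 for BACH1, -0.30 for GCLM, -0.37 for GCLC, -0.63 for TXNRD1 and -0.76 for NQO1, so that NQO1 no longer lay near 0. The 3 genes most like HMOX1 by this measure were SNAP47 (0.98), TTC7A (0.97) and SLC41A3 (0.97), none of which was called between the groups (edgeR log2 fold changes 0.06, 0.03 and 0.18). Without centring, the 3 most similar were BOD1, RAB26 and MVD (all 0.99), and none of the centred 3 was among them. Over the 8 libraries, with centring, the 3 most similar were WBP2, BLVRB and ULK3 (all 0.99).

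The wider pathway was read through 5 lists with 63 genes, of which 59 were tested, 12 rose, 9 fell and 38 were not called, and the median log2 fold change was -0.00. That is 21 of 59 called, beside 15.4% of all rows (7.62% higher and 7.8% lower). The number that fell depended on single libraries: with each left out in turn it was between 4 and 11, and 4 without control 1, control 3, control 4 or HG 4, while the number that rose was between 9 and 15. Without control 2 and HG 1 together, 17 rose and 14 fell, after correction for GC content and length 16 rose and 14 fell, and with 1 surrogate variable 15 rose and 17 fell. More of all rows were called in these fits too, 4035 of 14899, 3781 of 13538 and 4008 of 14936. GPX2, AKR1C1, AKR1C2 and UGT1A6 did not pass the filter, with at most 8 counts in any library. AKR1C1 and AKR1C2 are near-identical copies, and how shared reads were counted is not given in the sources used here, so their low counts are uncertain.

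Haem and iron genes stood nearest to HMOX1 in role, and 3 of 11 rose and 1 fell (all rows: 7.62% higher, 7.8% lower). ALAS1, the first enzyme of haem synthesis, rose from 49.0 to 54.0 normalized CPM in control to 77.2 to 86.9 in high glucose (log2 fold change 0.66, SE 0.0487, edgeR adjusted p = 2.86e-05). BLVRB, a biliverdin reductase, and TFRC, the transferrin receptor, rose by log2 fold changes of 0.57 and 0.53, and ABCB6, a porphyrin transporter, fell by 0.36 on the log2 scale; these 3 were chosen after their values were seen. The ferritin chains FTH1 (0.13) and FTL (0.05), the exporter SLC40A1 (0.54, edgeR adjusted p = 0.120), the constitutive haem oxygenase gene HMOX2 (-0.28, edgeR adjusted p = 0.113) and BLVRA (0.13) were not called. FTH1 overlaps BEST1 on the opposite strand, and whether the counting used strand is not given in the sources used here, so reads of the overlap could be counted for either.

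Among 15 genes of NRF2 control and its partners, 3 rose and 2 fell (all rows: 7.62% higher, 7.8% lower). MAFF, a small MAF partner, went from a mean of 6.49 to 9.88 normalized CPM (log2 fold change 0.61, SE 0.122, edgeR adjusted p = 0.00692), while MAFG (-0.01) and MAFK (-0.16, edgeR adjusted p = 0.0537) were not called. SQSTM1, which encodes the KEAP1-binding autophagy receptor p62, rose by 0.34 and NFE2L1, a relative of NFE2L2, by 0.24. SYVN1, an ER ubiquitin ligase, fell by 0.21 and NFE2L3, the other relative, fell by 0.37; these 4 were also named after their values were seen. CUL3 and RBX1, which complete the KEAP1 ligase, were not called (log2 fold changes -0.01 and -0.05).

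All 6 NADPH-supply genes were tested, and 3 rose and none fell (all rows: 7.62% higher, 7.8% lower). IDH1, the cytosolic isocitrate dehydrogenase, went from a mean of 179.6 to 276.6 normalized CPM (log2 fold change 0.62, SE 0.0447, edgeR adjusted p = 2.86e-05). PGD (0.29) and ME1 (0.26) also rose and were named after their values were seen.

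Of 11 glutathione and thioredoxin genes tested, 3 rose and 3 fell (all rows: 7.62% higher, 7.8% lower). SLC7A11, the cystine transporter that feeds the glutathione synthesis of GCLC and GCLM, was at 22.2 to 32.5 normalized CPM in control and 33.4 to 50.2 in high glucose, with control 2 and HG 1 lowest in their groups (log2 fold change 0.57, SE 0.123, edgeR adjusted p = 0.00993). PRDX1, a peroxiredoxin that sulfiredoxin repairs, fell from a mean of 461.8 to 350.2 normalized CPM (log2 fold change -0.40, SE 0.0708, edgeR adjusted p = 0.00358). Chosen after their values were seen are GSR (0.23) and MGST1 (0.34), which rose, and PRDX6 and GSTM3, which fell by 0.31 and 0.30. TXN, the substrate of TXNRD1, was not called (log2 fold change 0.15).

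Of 16 reduction, conjugation and efflux genes tested, none rose and 3 fell in the edgeR test, a share near the 15.4% called over all rows (7.62% higher, 7.8% lower). AKR1B1, the aldose reductase that turns glucose into sorbitol, went from a mean of 1277 to 903.9 normalized CPM (log2 fold change -0.50, SE 0.0975, edgeR adjusted p = 0.00608). ABCC1, an exporter of glutathione conjugates, fell by 0.45 on the log2 scale (SE 0.0589, edgeR adjusted p = 0.000711). AKR1C3, named after its values were seen, fell by 0.43.

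**Figure D5:**
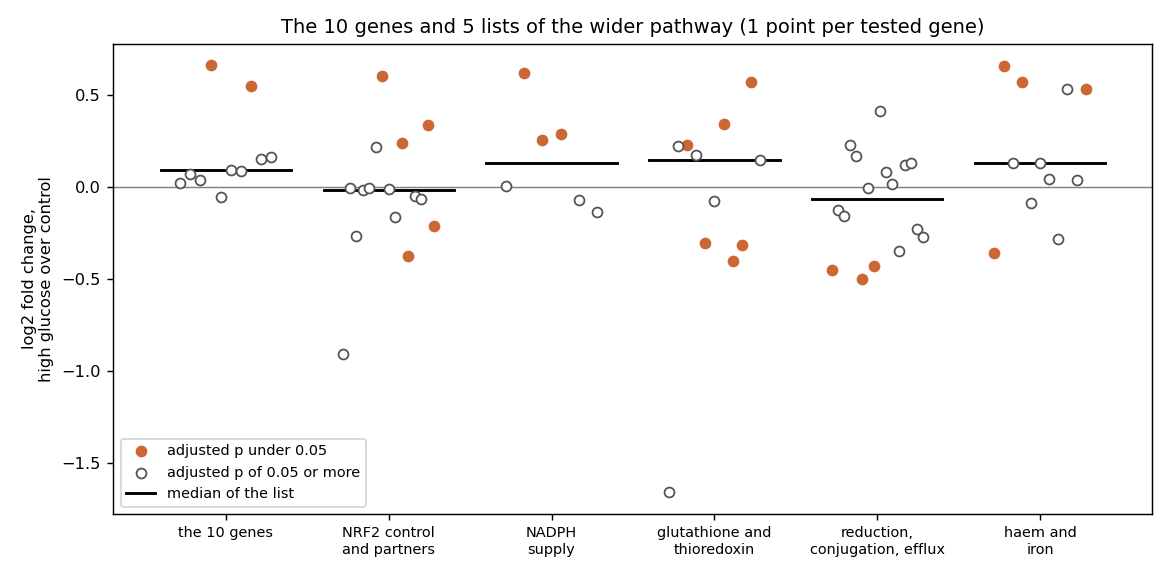
EdgeR log2 fold change, high glucose over control (y axis), of each tested gene (points) of the 10 genes and the 5 lists, with the list median (bar); filled points have an adjusted p under 0.05. The 10 genes have 2 filled points above 0 and none below. Filled points of the 5 lists lie on both sides of 0, 12 above and 9 below.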

How the data were processed

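RNA of 10 ARPE-19 samples was extracted with Trizol and made into libraries with the VAHTS Universal V6 kit, per the labels. The submitters' processing notes name fastp 0.20.1, HISAT2 2.2.1 and GRCh38; the counting program and annotation are not given in the sources used here. The authors deposited a table of whole-number read counts per gene, without normalization, and a table of FPKM values, scaled by transcript length and library size. From the counts, edgeR 4.0.16 in R 4.3.3 was used with its default filter, TMM scaling, the quasi-likelihood test and Benjamini-Hochberg adjustment over 14936 rows. The ratio to HMOX1 was tested with limma 3.58.1 (trend) on log2 CPM with a prior count of 2. Standard errors come from the quasi-likelihood F. FPKM values were used for levels between genes and, as log2(FPKM + 1) and log2(FPKM + 0.1), in limma alternatives. Positions and transcripts come from GENCODE 29, and promoter windows from RefSeq (GRCh38.p14), where 9 of 10 symbols matched. Steps were tested on simulated counts.

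The 10 genes, the lists and the tests were chosen with earlier results of these data known. The genes named are the 10, the 3 most like HMOX1, TXNIP, and in each list those called with a fold above 1.5, or failing any the 2 with the largest change among those called; all further genes in the text were picked with their values known. The alternatives were DESeq2 1.42.0, scaling by RLE or by library size, no filter on low counts or a minimum of 10 in each library, 1 surrogate variable from sva 3.50.0, a linear model without moderation, limma on FPKM, a correction for GC content and length (lowess, span 0.3), the column number as a block, and leaving out each library or control 2 and HG 1 together. The likeness to HMOX1 without control 2 and HG 1 was added after seeing the data. Depth was 32448991 to 45864176 counts per library. No 2 libraries of a group agreed within sampling noise (chi-square per gene 13.2 to 78.7 over 20 pairs). The count table's HG columns could be placed in the group only. The values of 1 listed gene are not reported here.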

Additional observations from a re-analysis of the deposited data

Results flagged for a closer look

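In 9 of 38 groups of 5 values, the highest or lowest library lay apart from the nearest other by more than 0.71 of the range of the group (Dixon's limit), where chance alone picks out about 1 in 20. In 8 of the 9 the library was control 2 or HG 1.

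HG 1 was the lowest high glucose library for NFE2L2 (127.8 normalized CPM against 156.6 to 158.8), GCLC (35.0 against 42.3 to 45.2) and GCLM (34.2 against 45.7 to 49.1). It was the highest for KEAP1 (105.5 against 85.2 to 89.2) and for PRDX1 (410.0 against 327.5 to 344.4). Control 2 was the lowest control library for GCLC (31.8 against 40.5 to 43.3), GCLM (37.1 against 44.5 to 46.4) and TXNRD1 (1017 against 1249 to 1341). After correction for GC content and length, the deviation from the other 4 libraries of the group went from -0.30 to -0.01 log2 units for GCLM in control 2 and from 0.27 to -0.06 for KEAP1 in HG 1, while for NFE2L2 in HG 1 it went from -0.30 to -0.26.

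The exception was HMOX1 in control 1, at 38.8 normalized CPM against 50.5 to 54.2 in the other 4. Without control 1 the log2 fold change of HMOX1 was 0.59, the lowest of the fits that left out a library, and it stayed past the threshold.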

How the results depend on the processing

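HMOX1 was called in all 23 alternatives, with log2 fold changes from 0.59 to 0.70 and adjusted p from 1.68e-08 to 0.0344, and NFE2L2, KEAP1, BACH1, NQO1, GCLC and GCLM in none of them. The count of called members, 2, was 4 with 1 surrogate variable, 4 without control 2 and HG 1 together, and 1 to 3 when each library was left out in turn. OSGIN1 was called in 16 of 23, SRXN1 in 10 and TXNRD1 in 3. A linear model without moderation gave OSGIN1 an adjusted p of 0.0600. When each library was left out, the log2 fold change of BACH1 ran from -0.06 to 0.12, of GCLC from -0.00105 to 0.13 and of GCLM from -0.01 to 0.13. Without control 2 the values of BACH1, GCLC and GCLM were -0.0583, -0.00105 and -0.0130. The cause of these changes was not tested.

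Over all rows, 2303 were called, 4008 with 1 surrogate variable, 3781 after correction for GC content and length, 4035 without control 2 and HG 1 together, and 1648 to 2993 when each library was left out. With a fold above 1.5 the count was 551, limma on log2(FPKM + 1) gave 261, or 247 when rows under a mean of 1 FPKM were dropped, and 461 to 618 rows were called when each library was left out. The count of the wider lists, 21, was 32 with 1 surrogate variable, 31 without control 2 and HG 1 together, 30 after correction for GC content and length, and 13 to 26 when each library was left out, with 13 without control 1 and 13 without control 3. The 8 genes with a called ratio to HMOX1 were 7 or 8 when each library was left out and 6 to 8 otherwise. The looser promoter pattern raised 3 matching genes to 7, and 0 of the 3 genes most similar to HMOX1 were shared without centring, and 0 without control 2 and HG 1 together.

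The labels give the high glucose samples letters, and samples of the same column number did not deviate together (correlations from -0.0656 to 0.0392). Such low correlations cannot exclude a shared culture or day, so whether the numbers pair samples is not known. With the column number as a replicate block, edgeR called 1071 rows, 14 genes of the wider lists and 1 member, HMOX1, with an adjusted p of 0.0344, and gave OSGIN1 an adjusted p of 0.134. Among the 10 genes OSGIN1 had the fewest reads, with 258 to 765 counts per library.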
